A study of Homo sapiens with 3 samples.

Results

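The miR-130 and miR-301 seed family was examined in clones of CAL-27, an established line of human squamous cell carcinoma of the tongue. Its members were the 4 mature miRNAs hsa-miR-130a-3p, hsa-miR-130b-3p, hsa-miR-301a-3p and hsa-miR-454-3p (written below without the species prefix), taken by name from a table of 1149 mature miRNAs. All 4 were listed, and all shared bases 2 to 8, the seed. A search of the table for the same seed found 5 miRNAs, the additional one being miR-301b-3p, which is described beside the members. The deposited family column places miR-454 in a family of its own (mir-454) and the others in mir-130, so the seed and not that column defines the group here.

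Small RNA was sequenced from 3 libraries, 1 in each of 3 groups: CC, untreated control clones; Mock, which by the series' design text received a single X-ray dose of 2 Gy; and RR, radioresistant clones given 2 Gy daily in 2 cycles of 5 days, with 2 weeks of recovery after each cycle. Clones of all groups derive from the same parental line, and the labels do not state how many clones went into a library. The treatment tag naming irradiation stands on Mock and the tag naming a 2 Gy dose on RR, so directions below refer to the libraries as labelled. Since each group is a single library, no difference could be set against replicate spread and no p-values were computed.

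A miRNA recognises its target mRNAs mainly through the seed, so that miRNAs with a common seed share many predicted targets. Members of this family are known to repress PPARG, a nuclear receptor of lipid metabolism. Each miRNA hairpin can give 2 mature products, one from its 5p and one from its 3p arm, and in this family the 3p arm carries the common seed.

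The sequences of the 5 miRNAs, as deposited and with the seed in capitals, are shown because the family is defined by them.
miR-130a-3p: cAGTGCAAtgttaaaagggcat
miR-130b-3p: cAGTGCAAtgatgaaagggcat
miR-301a-3p: cAGTGCAAtagtattgtcaaagc
miR-301b-3p: cAGTGCAAtgatattgtcaaagc
miR-454-3p: tAGTGCAAtattgcttatagggt
Outside the seed they form 3 kinds. miR-130a-3p and miR-130b-3p differ at 2 of 22 bases, T11A and A13G (the base of miR-130a-3p first, positions from the 5′ end), and miR-301a-3p and miR-301b-3p at 2 of 23, A10G and G11A. miR-454-3p differs from each of the other 4 at 10 to 12 bases, the first base among them. The split of reads within the miR-130 pair and within the miR-301 pair is uncertain, because the sources used here do not say where a read that fits both miRNAs was counted. The seed occurred in no listed miRNA beyond these 5, at any position.

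The 4 members come from 3 loci of GRCh38. miR-130a-3p lies on chromosome 11 at 57641252 to 57641273, plus strand, in the MIR130A hairpin (57641198 to 57641286), within an intron of the non-coding gene AP000662.1 on the same strand. miR-130b-3p lies on chromosome 22 at 21653354 to 21653375, plus strand, in the MIR130B hairpin (21653304 to 21653385), which overlaps an exon of the non-coding AP000553.1. miR-301b-3p ends 257 bases before that hairpin. A search of the mature miRNAs placed by RefSeq found no other listed miRNA within 10 kb of a member hairpin on its strand. It did not return miR-301b-5p, which is listed and comes from the same hairpin as miR-301b-3p, so it can miss listed miRNAs. miR-301a-3p (chromosome 17, 59151149 to 59151171, minus strand) and miR-454-3p (59137787 to 59137809, minus strand) both lie in introns of SKA2, which encodes a spindle and kinetochore protein, and their hairpins are 13264 bases apart.

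Library totals ran from 10473400 to 10769990 reads, of which the listed miRNAs took 16.3% (CC), 23.2% (Mock) and 20.5% (RR). The summed squamous epithelial markers (miR-205-5p, miR-203a-3p, miR-200c-3p, miR-141-3p and miR-200b-3p, 5 of 5 listed) ranged from 29570 rpm (Mock) to 45058 rpm (RR), where rpm is reads per 1000000 reads of the library total. The lower sum in Mock came from miR-205-5p, at 0.546-fold of CC, whereas miR-200c-3p (1.19-fold), miR-200b-3p (1.45-fold) and miR-141-3p (2.07-fold) were higher in Mock and miR-203a-3p was 1.04-fold (0.867 to 1.24). Markers of leukocytes (3 of 4 listed) summed to 0.0929 rpm (CC), 1.98 rpm (Mock) and 0.0955 rpm (RR) and those of mesenchymal cells (3 of 5 listed) to at most 6.49 rpm. The 3 erythroid markers summed to 9.47 rpm (CC), 408 rpm (Mock) and 12.2 rpm (RR), endothelial markers (2 of 2) to 55.2 to 81.9 rpm, muscle markers (3 of 3) to 341 to 408 rpm, nearly all of it miR-1-3p, and the hepatic marker miR-122-5p to 2.96 to 5.45 rpm. No listed marker was at 0 in all libraries.

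The family was a minor part of the miRNA pool in every library. Together the 4 members gave 144 reads in CC, 266 reads in Mock and 213 reads in RR, or 13.4 rpm (95% Poisson interval 11.3 to 15.7), 25 rpm (22.1 to 28.2) and 20.3 rpm (17.7 to 23.3). That was 0.00822%, 0.0108% and 0.00992% of the listed miRNA reads. All intervals cover counting error only, because PCR copies could not be told from separate molecules.

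miR-130a-3p, known to repress the antiangiogenic homeobox genes MEOX2 and HOXA5, was the member with the most reads in each library. It had 60, 115 and 88 reads in CC, Mock and RR, which are 5.57 rpm (4.25 to 7.17), 10.8 rpm (8.93 to 13.0) and 8.40 rpm (6.74 to 10.4). By its mean over the libraries it ranked 227th of the 1149 miRNAs. CC was the lowest library and Mock the highest, and the counting intervals of CC and Mock did not overlap.

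miR-130b-3p had 38, 82 and 64 reads in CC, Mock and RR, or 3.53 rpm (2.50 to 4.84), 7.71 rpm (6.13 to 9.57) and 6.11 rpm (4.71 to 7.80). miR-454-3p had 43, 65 and 60 reads, or 3.99 rpm (2.89 to 5.38), 6.11 rpm (4.72 to 7.79) and 5.73 rpm (4.37 to 7.37). For each, CC was again the lowest library. The levels of miR-130b-3p and miR-454-3p lay within each other's counting intervals in CC and overlapped in Mock and RR, so their order was not resolved at this depth. The interval of miR-130a-3p lay above that of miR-454-3p in Mock and overlapped it in CC and RR.

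miR-301a-3p stood at the edge of detection, with 3, 4 and 1 reads in CC, Mock and RR, beside a floor of 3 reads that corresponds to 0.279 to 0.286 rpm. Its sequence relative miR-301b-3p had 7, 15 and 6 reads, or 0.650, 1.41 and 0.573 rpm. In each library both miR-301 sequences lay under the other 3 members, with no overlap of intervals. No direction for miR-301a-3p was detectable at this depth: Mock over CC was 1.35-fold with an interval of 0.228 to 9.22, and no fold is given for RR over CC, where both counts are at or under the floor.

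**Figure D1:**
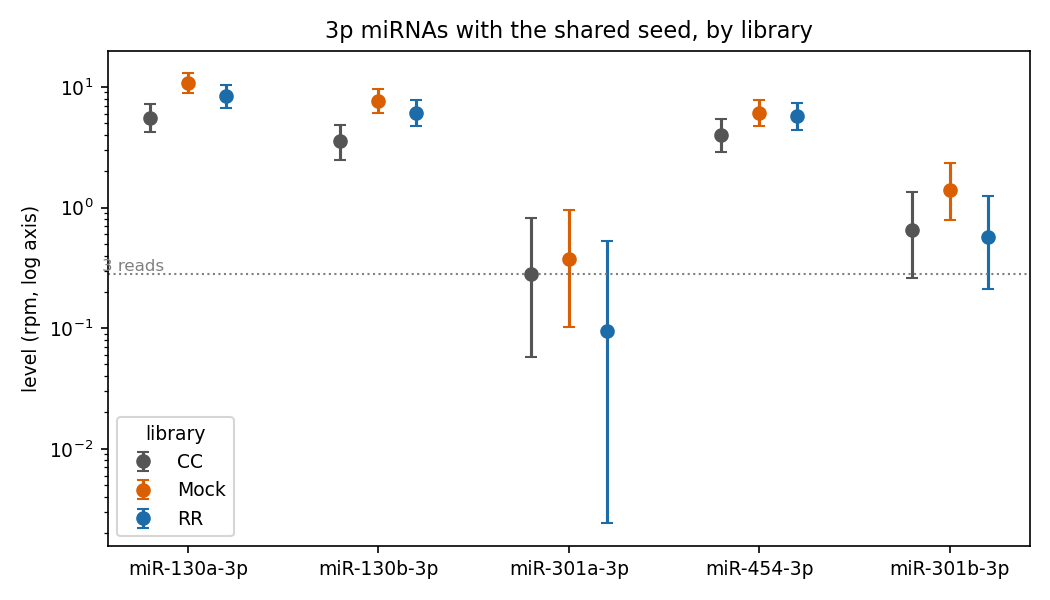
Levels of the 4 members and miR-301b-3p in rpm (log axis) in the CC, Mock and RR libraries; points are single libraries, bars are exact 95% Poisson intervals, and the dotted line marks 3 reads. miR-130a-3p, miR-130b-3p and miR-454-3p sit between 3.53 and 10.8 rpm with CC lowest, whereas miR-301a-3p sits at or near 3 reads.

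The makeup of the family was close in the 3 libraries. miR-130a-3p gave 41.7% of the members' reads in CC (exact binomial interval 33.5% to 50.2%), 43.2% in Mock (37.2% to 49.4%) and 41.3% in RR (34.6% to 48.2%). miR-130b-3p gave 26.4%, 30.8% and 30.0%, and miR-454-3p 29.9%, 24.4% and 28.2%. These shares do not depend on how the libraries are scaled. Removing a trend with the content of G and C, described below, changed the members unequally, however. With it removed, the log2 ratio of Mock over CC fell from 0.94 to 0.82 for miR-130b-3p and from 0.51 to 0.14 for miR-454-3p. The ratio of miR-130a-3p to miR-130b-3p in CC, Mock and RR was 1.58, 1.40 and 1.38, and its change from CC to Mock was 0.888-fold with an exact conditional interval of 0.523 to 1.5. For miR-130b-3p against miR-454-3p the change from CC to Mock was 1.43-fold (0.799 to 2.55).

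RR over CC compares radioresistant with untreated clones. The summed members were 1.52-fold higher in RR (exact interval 1.23 to 1.89). miR-130b-3p was 1.73-fold higher (1.14 to 2.66) and miR-130a-3p 1.51-fold (1.07 to 2.13), while miR-454-3p was 1.43-fold (0.954 to 2.17), an interval that includes no change. An interval above 1 was common in this comparison, however: 51.8% of the 390 miRNAs averaging at least 1 rpm had one, 2.82% had one below 1, and their median ratio was 1.29-fold. Of these 390, 208 average 10 rpm or more, above the members, and generally have narrower intervals. The shares of intervals are therefore not a like comparison for the members. With median-ratio scaling of the libraries, which took the median log2 ratio of the more abundant miRNAs from 0.36 to -0.02, that of the summed members went from 0.57 to 0.21. In RNA from whole cultures, a shift in which cells are present cannot be told apart from a change per cell.

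The count of differences used log2 ratios after adding 1 rpm, a threshold of 2-fold and miRNAs averaging at least 10 rpm. None of the 4 members passed that filter, so it returned 0 members, beside 0.962% of 208 miRNAs called higher and 0.481% called lower in RR over CC. With a mean of 1 rpm or more, 3 of 4 members passed (all but miR-301a-3p) and 0 were past 2-fold, beside 1.28% of miRNAs higher and 0.513% lower. The log2 ratios of the 3 were 0.52 for miR-130a-3p, 0.65 for miR-130b-3p and 0.43 for miR-454-3p, and the median of all 390 was 0.30. Among the 182 miRNAs with a mean from 1 to under 10 rpm, where the 3 members lie, miR-130b-3p ranked 24th from the top, miR-130a-3p 44th and miR-454-3p 62nd.

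Mock over CC compares a single exposure with none, as the libraries are labelled. The summed members were 1.87-fold higher in Mock (1.52 to 2.31), with miR-130b-3p at 2.19-fold (1.47 to 3.30), miR-130a-3p at 1.94-fold (1.41 to 2.70) and miR-454-3p at 1.53-fold (1.03 to 2.31). All 3 intervals lay above 1, as they did for 45.6% of the 390 miRNAs, while 21% had an interval below 1. For the reason given under RR over CC, these are again not a like comparison for the members. In the same order the log2 ratios after adding 1 rpm were 0.94, 0.85 and 0.51, beside a median of 0.25, so 0 of the 3 were past 2-fold on that scale, beside 11.3% of miRNAs called higher and 3.33% lower. With the filter at 10 rpm, which no member passed, these shares were 12% and 3.85%. From the top of the 182 miRNAs of similar level, miR-130b-3p ranked 23rd, miR-130a-3p 31st and miR-454-3p 62nd.

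Base composition and the erythroid and leukocyte markers moved with this comparison. The members hold 34.8% (miR-454-3p) to 45.5% (miR-130b-3p) G and C, under the median of 50% over the 390 miRNAs, and miRNAs of low GC content stood higher in Mock (Spearman's rho between GC content and log2 ratio -0.49 across miRNAs, which share the same 2 libraries). With a linear GC trend removed, the log2 ratio of the summed members fell from 0.86 to 0.62, and with median-ratio scaling it was 0.57. That of miR-454-3p, the member of lowest GC content, fell from 0.51 to 0.14 without the GC trend and to 0.087 as a share of the listed miRNA reads. The erythroid markers, at 408 rpm in Mock against 9.47 in CC, were also higher in Mock, as were the leukocyte markers (1.98 against 0.0929 rpm). The muscle and mesenchymal markers did not move as sets. Among muscle markers, miR-206 was higher (25.5 against 1.76 rpm, 14.4-fold, 9.07 to 24.4). However, miR-1-3p was 0.942-fold (0.899 to 0.987) and miR-133a-3p 0.645-fold (0.212 to 1.82). Among mesenchymal markers, miR-199a-5p was higher (12 reads against 2), but miR-143-3p was 0.768-fold (0.514 to 1.14) and miR-145-5p had 1 read against 5. The part of these markers in the result was not tested.

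RR over Mock compares repeated with single exposure, again by the labels. The summed members were lower in RR, at a ratio of 0.813 (0.676 to 0.977). Singly, miR-130a-3p had a ratio of 0.777 (0.582 to 1.03), miR-130b-3p of 0.792 (0.562 to 1.11) and miR-454-3p of 0.937 (0.649 to 1.35), and each interval includes no change. The median ratio of the 390 miRNAs was 1.08, above the intervals of the sum and of miR-130a-3p. From the top of the 182 miRNAs of similar level, miR-454-3p ranked 105th, miR-130b-3p 129th and miR-130a-3p 132nd. Of the 390 miRNAs, 34.4% had an interval above 1 and 29.5% below. However, 208 of the 390 average 10 rpm or more, above these members, and generally have narrower intervals. These shares are therefore not a like comparison for the members. The log2 ratio of the sum was -0.29 and became -0.024 with the GC trend removed, in a comparison where GC content and the log2 ratio had a Spearman correlation of 0.56. For miR-454-3p the log2 ratio turned from -0.08 to 0.31 with the GC trend removed and to 0.069 as a share of the listed miRNA reads. By the 2-fold rule, 0 of the 3 members with a mean of 1 rpm or more were counted, beside 7.95% of miRNAs called higher and 4.87% lower. At 10 rpm, the shares were 8.17% and 4.81%.

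**Figure D2:**
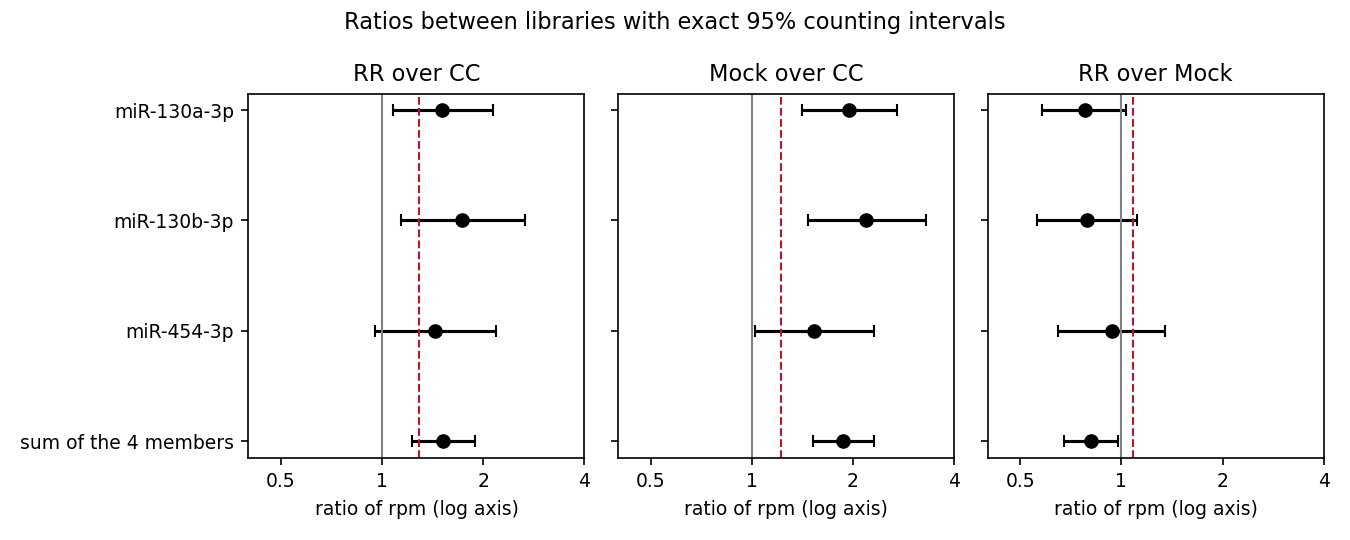
Ratios of rpm between libraries (log axis) for the 3 members above 1 rpm and for the sum of the 4, with exact 95% counting intervals; the grey line is a ratio of 1 and the red dashed line the median of 390 miRNAs. In Mock over CC the sum, at 1.87-fold, and its interval lie above the median of 1.22-fold, and in RR over CC the interval of the sum (1.23 to 1.89) includes the median of 1.29-fold.

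The hairpins differed in which arm gave the reads. MIR130A gave almost only 3p reads, MIR454 similar numbers from both arms, and MIR130B and MIR301A mostly 5p reads. The 3p share of the reads of both arms in CC, Mock and RR was 95.2%, 92.0% and 93.6% for miR-130a, and 55.8%, 53.7% and 60.0% for miR-454. For miR-130b it was 11.0%, 24.3% and 17.6%, and for miR-301a 8.33%, 13.3% and 3.03%, the last from 30 to 36 reads in a library. No interval of miR-130a overlapped one of miR-454 or miR-130b in any library.

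miR-130b was thus represented mainly by its 5p arm, which carries another seed. The MIR130B hairpin (RefSeq, GRCh38.p14) is printed with its 5p arm and then its 3p arm in capitals, since the ratio of these arms is compared between the libraries.
MIR130B: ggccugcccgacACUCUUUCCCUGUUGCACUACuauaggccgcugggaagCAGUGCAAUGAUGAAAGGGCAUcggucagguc
miR-130b-5p had 309, 256 and 299 reads in CC, Mock and RR, or 28.7 rpm (25.6 to 32.1), 24.1 rpm (21.2 to 27.2) and 28.5 rpm (25.4 to 32.0). It was thus lowest in Mock, the library in which miR-130b-3p was highest. Mock over CC was 0.839-fold for miR-130b-5p (0.708 to 0.994) and RR over CC 0.995-fold (0.846 to 1.17).

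The ratio of 3p to 5p reads of miR-130b was 0.123, 0.320 and 0.214 in CC, Mock and RR, a measure that no scaling of the libraries changes. It was 2.60-fold higher in Mock than in CC (exact conditional interval 1.68 to 4.07) and 1.74-fold higher in RR than in CC (1.11 to 2.76), and RR over Mock was 0.668 (0.455 to 0.980). The arms have similar GC contents, 45.5% for 3p and 47.6% for 5p, and with the GC trend removed the change from CC to Mock was 2.49-fold. Such intervals were not rare. Of 119 hairpins with both arms read in each library and 20 reads or more, 17.6% had an interval showing a gain of the 3p arm in Mock over CC and 19.3% a gain of the 5p arm; these shares were 11.8% and 10.1% in RR over CC, and 21% and 14.3% in RR over Mock. By size of the 3p gain, miR-130b ranked 8th of the 119 in Mock over CC and 11th in RR over CC, where the median changes were 0.900-fold and 0.961-fold.

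The other hairpins showed no such shift that their reads could resolve. The 3p to 5p ratio of miR-454 changed 0.918-fold from CC to Mock (0.496 to 1.70) and 1.19-fold from CC to RR (0.621 to 2.26), and that of miR-130a 0.575-fold (0.0983 to 2.35) and 0.733-fold (0.114 to 3.6). miR-454-5p, at 3.16, 5.27 and 3.82 rpm in these libraries, was 1.67-fold higher in Mock than in CC (1.07 to 2.64). miR-301a-5p, from the same host gene, stood at 3.06, 2.45 and 3.06 rpm, 0.798-fold in Mock over CC (0.458 to 1.38). In all, the 5p arms of the 4 member hairpins summed to 35.2, 32.7 and 36.0 rpm in CC, Mock and RR, more than the 3p arms in each library. Most of this was miR-130b-5p (28.7, 24.1 and 28.5 rpm), whereas miR-130a gave mostly 3p reads and miR-454 similar numbers from both arms.

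**Figure D3:**
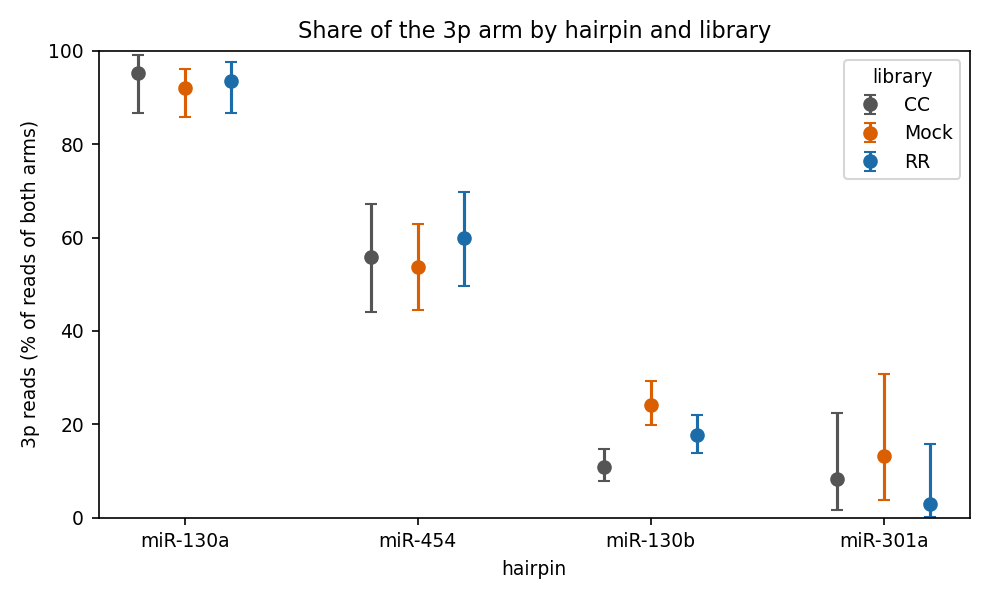
Share of 3p reads among the reads of both arms (percent) for the 4 member hairpins in CC, Mock and RR; bars are exact 95% binomial intervals. The share runs from 95.2% for miR-130a in CC down to 3.03% for miR-301a in RR, and for miR-130b it is 11.0% in CC against 24.3% in Mock, with intervals that do not overlap.

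The 5p arms also differ in whether they hold the reverse complement of the shared seed. This motif, TTGCACT, was searched in all listed miRNAs, and stands at bases 13 to 19 of miR-130b-5p, miR-301a-5p and miR-301b-5p. It is not in miR-130a-5p or miR-454-5p. In all, 8 of 1149 listed miRNAs hold it (0.696%), and on the other strand the motif is the seed itself, held by 5 (0.435%). The capitals mark it in the 5p sequences, shown because the 2 hairpins with the highest share of 5p reads, miR-130b and miR-301a, hold it and those of miR-130a and miR-454 do not.
miR-130a-5p: gctcttttcacattgtgctact
miR-130b-5p: actctttccctgTTGCACTac
miR-301a-5p: gctctgactttaTTGCACTact
miR-301b-5p: gctctgacgaggTTGCACTact
miR-454-5p: accctatcaatattgtctctgc
miR-301b holds the motif and yet gave mostly 3p reads, 7 against 2 in CC, 15 against 3 in Mock and 6 against 1 in RR. The match is a description of these letters only.

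**Figure D4:**
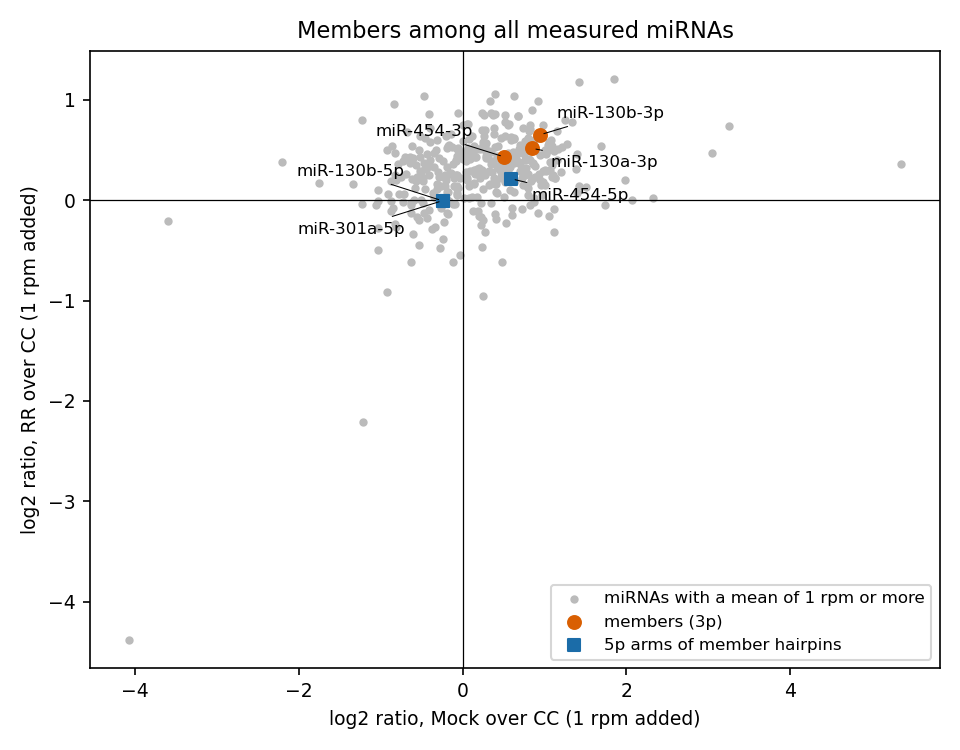
Log2 ratios of Mock over CC (horizontal) and RR over CC (vertical), with 1 rpm added, for 390 miRNAs averaging at least 1 rpm; orange points are the 3 members above that level and blue squares the 5p arms of member hairpins above it. The members lie at 0.51 to 0.94 and 0.43 to 0.65, and miR-130b-5p and miR-301a-5p both at -0.24 and near 0.

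The miRNAs with the pattern most like the summed members were miR-32-3p, miR-22-5p, miR-32-5p, miR-24-3p and miR-101-3p, by the distance between their pairs of log2 ratios (Mock over CC and RR over CC), with the filter at 10 rpm. miR-32-3p lay at a distance of 0.04, with log2 ratios of 0.82 and 0.54 beside 0.86 and 0.57 for the summed members, and miR-101-3p, known to repress EZH2, at 0.11. Both comparisons use the CC library, and the likeness rests on 3 libraries.

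miRNAs whose seed is that of the family shifted by 1 base were in sum far more abundant and did not all follow the same order of libraries. miR-148a-3p, miR-148b-3p and miR-152-3p have the seed CAGTGCA, and miR-19a-3p and miR-19b-3p, from the miR-17 to miR-92 cluster, known as oncogenic, GTGCAAA. Their 5 levels summed to 1733, 2655 and 2234 rpm in CC, Mock and RR. miR-148a-3p alone stood at 1609, 2482 and 2087 rpm and had CC lowest and Mock highest, as had the summed members. miR-19a-3p, closest in level to the members at 4.27, 10.4 and 3.25 rpm, was 2.44-fold higher in Mock than in CC (1.72 to 3.53) and 0.760-fold in RR over CC (0.473 to 1.21, which includes no change). miR-152-3p had RR highest, at 12.3, 14.8 and 23.3 rpm. All 5 had a mean of 1 rpm or more, the filter used for this count, and miR-19a-3p would not pass 10 rpm. By log2 ratio, 1 of the 5 was past 2-fold in Mock over CC (miR-19a-3p, 1.12), beside 11.3% of miRNAs called higher, 0 in RR over CC, beside 1.28% higher and 0.513% lower, and 1 was lower in RR over Mock (miR-19a-3p, -1.43), beside 4.87%.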

How the data were processed

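Per the labels' protocols, libraries were made from total RNA with a small RNA kit that ligates adapters to both ends; PCR products of small RNA size were isolated and read on an Illumina instrument. Bowtie and GRCh38 are named in the submitters' processing notes. The sources used here do not give the trimming, the miRNA reference or the treatment of multiply matching reads. The deposited values, called TPM by the authors, behave as RPM (reads per 1000000 reads of a library total): dividing each by the smallest step of its library gave a whole number, to 0.01, for 100% of values, and these are the reads used.

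Levels have exact 95% Poisson intervals, ratios intervals from the Clopper-Pearson limits, and changes in the ratio of 2 miRNAs conditional odds ratio intervals. Without replicates no count model was fitted. Log2 ratios use a pseudocount of 1 rpm. Computation was tested on simulated data (Python 3.11.15, scipy 1.17.1). Sequences are from the deposited table; RefSeq (GRCh38.p14) held 3 of 4 member sequences and 4 of 4 hairpins, and gave coordinates; host genes are from GENCODE 29. Members, lists and rules were chosen with earlier results of these data known. Named were the members, their 5p arms, miRNAs of the same or a shifted seed, hairpin neighbours and the 5 miRNAs with the most similar pattern; a further fixed list is not reported here. The background over arm pairs and the search for the seed's reverse complement were added after the data were seen.

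Alternatives were pseudocounts of 0.1 and 10, other filters and fold thresholds, 3 scalings, removal of a GC trend, and a sum that includes miR-301b-3p.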

Additional observations from a re-analysis of the deposited data

How the results depend on the processing

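The log2 ratio of the summed members kept its sign under all alternatives tried, but not its size. In RR over CC it was 0.57, and 0.21 with median-ratio scaling, 0.26 as a share of listed miRNA reads and 0.27 after scaling that leaves out the 10 most abundant; medians of the 208 miRNAs were then -0.02, 0.03 and 0.04 in place of 0.36. In Mock over CC it was 0.86, and 0.57, 0.37 and 0.53 under these scalings and 0.58 with a pseudocount of 10. In RR over Mock it was -0.29, and -0.024 without the GC trend. Each of these alternative values of the sum lay outside its counting interval. Intervals were not recomputed under the alternatives, so a kept sign does not show that a difference from no change held. Of 24 values of single members per comparison, 24, 20 and 24 stayed within their counting interval (RR over CC, Mock over CC, RR over Mock). This count says little of stability, because low depth makes the intervals wide, above all for miR-301a-3p (0.228 to 9.22-fold in Mock over CC). The intervals also hold no pseudocount, whereas the values do. Within those intervals the sign turned for miR-454-3p in RR over Mock (-0.08 to 0.31 without the GC trend, 0.069 as a share of listed reads) and for miR-301a-3p in Mock over CC (0.11 to -0.019 as a share). The change of the 3p to 5p ratio of miR-130b from CC to Mock was 2.49-fold without the GC trend. No member passed 10 rpm, so the count of 0 past 2-fold says nothing of stability. With settings added after the data were seen, a mean of 1 rpm or more with 1.5-fold counted 1 member in RR over CC (17.4% of miRNAs) and 2 in Mock over CC (43.3%), and with a pseudocount of 0.1 and 2-fold 1 in Mock over CC (23.1%), miR-130b-3p. Depth limits miR-301a-3p and miR-301b-3p most. No paired analysis was possible because each group has 1 library.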
